A study of Mus musculus with 2 samples.

Results

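The receptors examined were 175 genes annotated as protein-coding in GENCODE vM21, out of 21755 such genes on chromosomes 1 to 19 and X, chosen by symbols starting Vmn2r, Tas1r, Tas2r or Taar. They comprised 122 vomeronasal type 2 receptors (Vmn2r), 3 sweet and umami taste receptors (Tas1r), 35 bitter taste receptors (Tas2r) and 15 trace-amine-associated receptors (Taar). Vmn2r-ps130 and Vmn2r-ps159 were among the 122, as they carry pseudogene names but are annotated as protein-coding. DNase-seq, which sequences the ends left where the nuclease DNase I has cut accessible DNA, had been run on whole embryonic midbrain of B6NCrl mice at day 11.5. There was 1 group of 2 biological replicates, each pooling embryos of both sexes and sequenced on a different pair of instruments per the labels, and neither a control nor another tissue, so no test across samples could be made and each result is a count or a value set beside that of all genes or of the genome.

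All 4 families encode G-protein-coupled receptors for chemical cues. Vmn2r proteins sit on basal sensory neurons of the vomeronasal organ, signal through the G protein subunit Gnao1 and the channel Trpc2, and detect peptide and protein pheromones. Tas1r proteins pair with each other in taste cells, Tas2r proteins act singly there, and both signal through Gnat3, Plcb2 and Trpm5, while Taar proteins other than Taar1 serve in olfactory neurons as receptors for amines. They are known mainly as genes of sensory cells, and Taar1 also as a modulator of dopamine neurons of the adult midbrain.

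Sites with a peak of each replicate that lay among or inside the receptor genes are shown first, chosen from sites away from the starts of other genes, together with the second intron site of Vmn2r7, whose centre is 2262 bp from the start of a noncoding transcript. They are reference sequences of the plus strand of GRCm38.p6, with capitals marking the best match to the CTCF core, the central part of the motif of the insulator protein CTCF, where it had at most 1 mismatch. A match describes the letters and is not evidence of binding. In the Taar run on chromosome 10 the sites were chr10:24080296-24080465 near Taar8a and chr10:23942596-23942785 near Taar2. Those in introns of Vmn2r7 were chr3:64791016-64791185 and chr3:64842396-64842565, and those in the Tas2r139 to Tas2r126 run were chr6:42227356-42227505, nearest to Tas2r144, and chr6:42257376-42257545, nearest to Tmem139.
Taar8a site: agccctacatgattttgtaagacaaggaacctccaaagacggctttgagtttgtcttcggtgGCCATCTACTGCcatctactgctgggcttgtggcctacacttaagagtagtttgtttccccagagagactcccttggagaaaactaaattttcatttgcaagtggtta
Taar2 site: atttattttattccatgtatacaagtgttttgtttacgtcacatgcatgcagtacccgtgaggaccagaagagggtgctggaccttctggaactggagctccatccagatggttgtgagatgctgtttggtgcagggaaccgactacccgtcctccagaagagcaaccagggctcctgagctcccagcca
Vmn2r7 intron site, larger signal: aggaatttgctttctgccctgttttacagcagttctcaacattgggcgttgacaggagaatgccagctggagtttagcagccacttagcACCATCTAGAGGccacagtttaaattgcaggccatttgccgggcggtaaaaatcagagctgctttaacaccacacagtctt
Vmn2r7 intron site, smaller signal: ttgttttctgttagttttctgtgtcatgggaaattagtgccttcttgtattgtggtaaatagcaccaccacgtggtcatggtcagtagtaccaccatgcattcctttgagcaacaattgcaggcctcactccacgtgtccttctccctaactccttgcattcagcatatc
Tas2r144 site: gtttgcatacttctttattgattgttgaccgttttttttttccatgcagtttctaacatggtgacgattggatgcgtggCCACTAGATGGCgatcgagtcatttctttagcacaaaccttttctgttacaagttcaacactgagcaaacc
Tmem139 site: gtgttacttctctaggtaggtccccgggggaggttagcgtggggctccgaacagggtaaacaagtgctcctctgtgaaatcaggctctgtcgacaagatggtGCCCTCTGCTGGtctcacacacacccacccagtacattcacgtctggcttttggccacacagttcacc

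Almost no receptor start had a peak in both lists. At 1 of the 175 receptors (0.571%) each replicate had a peak no more than 500 bp from an annotated transcription start site (TSS), against 65.5% of all protein-coding genes. No peak of either replicate lay there for 161 receptors, 92.0%, against 28.1% of all genes. Replicate 1 had a TSS peak at 2 receptors (1.14%, against 68.0% of all genes) and replicate 2 at 13 (7.43%, against 69.5%). The single gene with both was Vmn2r-ps159, and 0 of the 3 Tas1r, 0 of the 35 Tas2r and 0 of the 15 Taar genes had both. Genes with no TSS peak in either replicate included, first in alphabetical order, Vmn2r-ps130 and Vmn2r1, Tas1r1 and Tas1r2, Tas2r102 and Tas2r103, and Taar1 and Taar3.

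**Figure D1:**
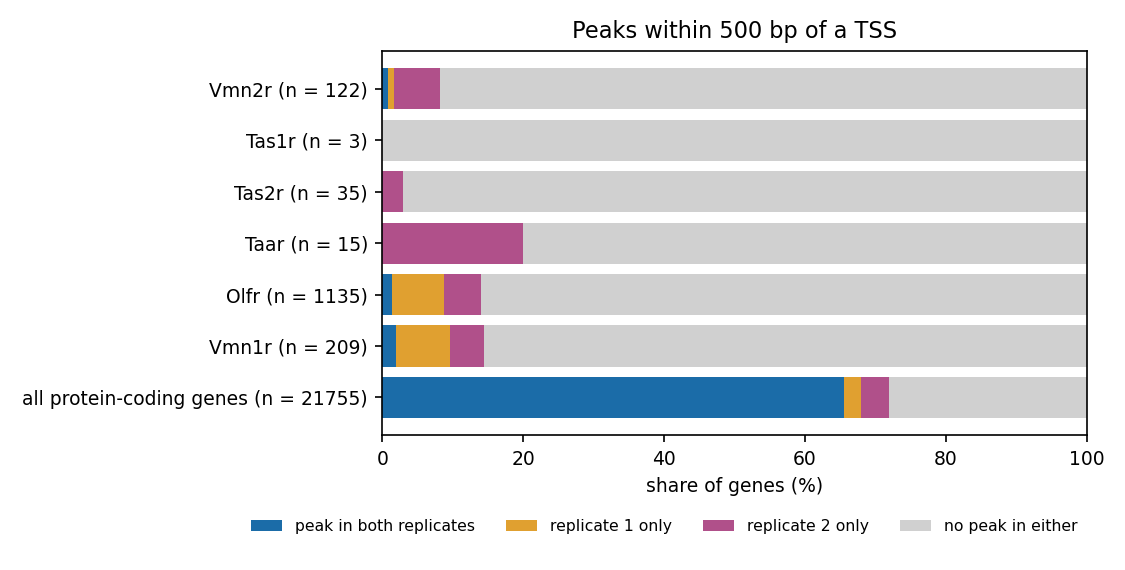
Share of genes (x axis, %) with a peak within 500 bp of a TSS in both replicates, in replicate 1 only, in replicate 2 only or in neither, for the 4 receptor families and, below them, olfactory receptors (Olfr), vomeronasal type 1 receptors (Vmn1r) and all protein-coding genes. No peak in either replicate was found at 97.1% of Tas2r and 91.8% of Vmn2r genes, against 28.1% of all genes.

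Other chemosensory receptor families also had low counts. A TSS peak of both replicates was found at 16 of 1135 Olfr genes (1.41%) and at 4 of 209 Vmn1r genes (1.91%). No peak in either replicate was found at 86.0% of Olfr and 85.6% of Vmn1r genes, against the 92.0% above. Of the 13 receptors with a TSS peak in 1 replicate alone, 12 had it in replicate 2. Over all protein-coding genes 862 had one in replicate 2 alone and 540 in replicate 1 alone. Among Olfr genes the counts were 60 and 83.

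The 14 receptors with any TSS peak had low signals. Signal is the authors' deposited value for a peak, a whole number with no stated normalization, whose median over all peaks was 18 in replicate 1 and 8 in replicate 2. Vmn2r83 was the only receptor with a TSS peak in replicate 1 alone, at signal 9 and 106 bp from the TSS. In replicate 2 alone, the Taar peaks had signal 11 at Taar7a, 9 at Taar2 and 2 at Taar8a, at 295, 107 and 315 bp from their TSSs. Taar2 is expressed in olfactory neurons, as is Taar7a, and neither had a TSS peak in replicate 1. Tas2r123, a bitter receptor, had a peak of signal 4 that covered its TSS. The Vmn2r peaks of replicate 2 alone had signal 7 at Vmn2r19, 4 at each of Vmn2r8, Vmn2r10, Vmn2r81 and Vmn2r82, 3 at Vmn2r48, and 1 at each of Vmn2r26 and Vmn2r29. Taar2 and Taar7a were the only receptors with a TSS peak in replicate 2 whose strongest TSS peak exceeded the median of the replicate 2 list.

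RefSeq promoter sequences, which run from 250 bases before to 50 after a gene's start, were available for 160 of the 175 receptors. The strongest TSS peaks of replicate 2 covered 150 bases of the windows of Vmn2r8, Vmn2r19 and Vmn2r26, which are not shown. Such peaks also covered part of the windows of Taar2 and Tas2r123, on the plus strand of GRCm38.p6 at chr10:23938322-23938621 and chr6:132846892-132847191. The windows of Taar2 and Tas2r123 are shown because their peaks lay under the widest hotspot at any receptor start with a TSS peak (Taar2) and over the only bitter receptor start with a peak (Tas2r123). Capitals mark the bases under the strongest TSS peak. Taar2 had 2 TSS peaks in replicate 2, and the weaker one, which starts 24 bp after the TSS and reaches into the printed window, is not capitalised.
Taar2 promoter: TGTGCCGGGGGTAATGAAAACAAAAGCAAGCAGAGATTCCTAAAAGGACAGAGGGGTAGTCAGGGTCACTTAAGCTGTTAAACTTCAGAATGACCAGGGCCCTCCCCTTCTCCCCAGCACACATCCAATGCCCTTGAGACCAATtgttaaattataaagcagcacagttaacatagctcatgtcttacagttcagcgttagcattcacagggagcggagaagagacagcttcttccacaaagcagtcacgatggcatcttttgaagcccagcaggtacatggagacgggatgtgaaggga
Tas2r123 promoter: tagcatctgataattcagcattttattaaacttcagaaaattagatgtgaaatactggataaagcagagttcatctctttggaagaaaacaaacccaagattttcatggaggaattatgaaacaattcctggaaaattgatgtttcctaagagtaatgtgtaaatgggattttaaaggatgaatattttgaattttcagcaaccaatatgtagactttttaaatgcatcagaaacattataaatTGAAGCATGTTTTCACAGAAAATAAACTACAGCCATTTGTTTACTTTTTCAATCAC
Hotspots are the authors' wider regions of raised cutting, each with a −log10 q-value that is capped at 100. The hotspot over the Taar2 peak was 1106 bp wide and that over the Tas2r123 peak was 372 bp wide, and both stood at the cap of 100 in replicate 2. Neither gene had a hotspot within 500 bp of a TSS in replicate 1. The hotspots at the other Taar starts were 201 bp wide at Taar7a and 151 bp at Taar8a, with values of 2.97 and 5.15.

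Vmn2r-ps159 met the rule in both replicates without an overlap. Its strongest TSS peak had signal 6 at chr4:156331436-156331585 in replicate 1 and its only one had signal 7 at chr4:156331616-156331765 in replicate 2, 301 and 481 bp from the TSS. Both peaks are on GRCm38.p6 inside the annotated gene, and they lie side by side.
Vmn2r-ps159, replicate 1: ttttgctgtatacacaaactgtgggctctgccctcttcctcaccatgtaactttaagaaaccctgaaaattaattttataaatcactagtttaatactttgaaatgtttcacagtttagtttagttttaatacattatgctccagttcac
Vmn2r-ps159, replicate 2: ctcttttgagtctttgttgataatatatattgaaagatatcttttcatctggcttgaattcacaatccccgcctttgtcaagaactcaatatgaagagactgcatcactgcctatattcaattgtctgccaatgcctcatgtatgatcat
The replicates differed over the whole gene. Replicate 1 had 22 peaks in its 8.40 kb, with a median signal of 5 and a highest signal of 11, while replicate 2 had 2 peaks of signals 7 and 8. Hotspots covered 3823 bp of the gene in replicate 1, where 8 of 19 stood at the cap, and 286 bp in replicate 2, where 0 of 2 did. The 1 site of both replicates in its body was chr4:156334576-156334805, in an exon, with signals of 7 in replicate 1 and 8 in replicate 2. No other receptor body held more than 5 peaks of replicate 1.

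Hotspots in place of peaks named 2 receptors, 1.14%, against 65.9% of all genes. The second was Tas1r1, a subunit of the umami receptor, where hotspots at the cap of 100 came within 317 bp of the TSS in replicate 1 (634 bp wide) and within 138 bp in replicate 2 (1510 bp wide). The nearest peak of each replicate lay 668 bp away. The start of Nol9, a gene for an RNA-processing kinase, lies 759 bp from the Tas1r1 TSS.

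Receptor starts are poor in CpG. The observed to expected CpG ratio within 500 bp of the 5′ end had a median of 0.116 for receptors and 0.558 for all genes. By deciles of that ratio over all genes, 135 of the 175 receptors fell in the lowest 2 deciles and 1 lay as high as the fifth. Of all 4351 genes in those 2 deciles, 9.33% had a TSS peak in both replicates and 78.9% had none in either. Of the 135 receptors there, 1 had both and 125 had neither.

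The receptors lie in runs of neighbouring genes, and these runs were examined base by base. Genes of 1 chromosome with gaps of at most 500 kb were joined, which put 165 receptors in 20 runs of 13.9 Mb in all, and left 10 single genes. Of these runs 19 held 1 family (163 genes, 13.5 Mb), and the last, on chromosome 4 between Tas1r3 and Vmn2r-ps159, held 20 other protein-coding genes besides its 2 receptors. Peaks of both replicates that overlapped by at least 1 bp were merged into 1 shared site. The 19 runs held 82 shared sites, 6.09 per Mb, against 35.1 per Mb over chromosomes 1 to 19 and X. The chromosome 4 run alone held 34, or 79.1 per Mb, and with it the 20 runs came to 116 sites and 8.34 per Mb.

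Fewer peaks were listed in the runs, and a smaller part of the merged regions held peaks of both replicates. Replicate 1 had 24.9 peaks per Mb in the 19 runs, against 119.5 per Mb over the genome, and replicate 2 had 48.2 against 178 per Mb. Of 735 merged regions in the runs 11.2% held a peak of both replicates, against 15.4% of all 583597 merged regions. Replicate 1 peaks overlapped a replicate 2 peak in 29.3% of cases in the runs and 30.8% over the genome. For replicate 2 peaks the shares were 15.5% and 21.7%. Replicate 2 had 1.94 times as many peaks as replicate 1 in the runs, and 1.49 times over the genome. The 200 kb on either side of the same runs held 27.6 shared sites per Mb, and the density was lower inside than outside in 16 of the 19. Runs of Olfr genes, built the same way, had 11.1 shared sites per Mb and those of Vmn1r genes had 3.18.

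**Figure D2:**
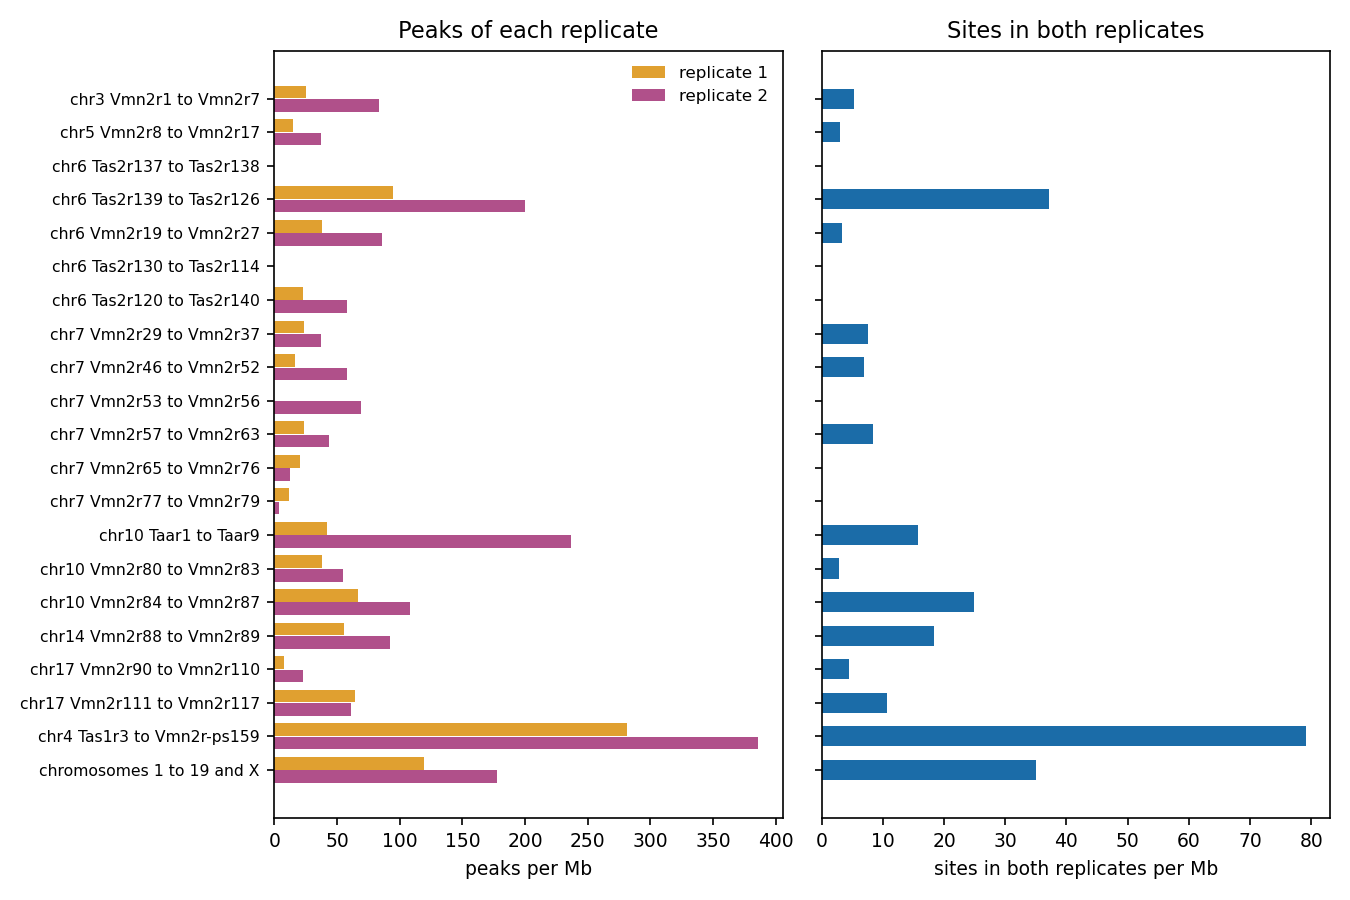
Peaks per Mb of replicate 1 and replicate 2 (left) and sites in both replicates per Mb (right) for the 19 runs of 1 family, with the mixed run on chromosome 4 and the genome at the bottom. The Tas2r139 to Tas2r126 run is the 1 run of a single family above the genome's 35.1 shared sites per Mb, and 6 runs have none.

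By family, shared sites numbered 68 in Vmn2r runs (5.48 per Mb), 11 in Tas2r runs (12.5 per Mb) and 3 in the Taar run (15.8 per Mb). All 11 of the Tas2r sites lay in the run from Tas2r139 to Tas2r126, which is 0.295 Mb long. The runs Tas2r137 to Tas2r138 (0.123 Mb) and Tas2r130 to Tas2r114 (0.0612 Mb) had 0 peaks in either replicate, and Tas2r120 to Tas2r140, with 18 bitter receptors, had 9 peaks of replicate 1 and 23 of replicate 2 with 0 shared. On chromosome 7, 3 Vmn2r runs were without a shared site, namely Vmn2r53 to Vmn2r56, Vmn2r65 to Vmn2r76 and Vmn2r77 to Vmn2r79. Together the 6 runs without one held 46 receptors. The run Vmn2r65 to Vmn2r76 was the longest of them at 1.31 Mb, with 27 peaks of replicate 1, 16 of replicate 2 and no overlap.

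Among runs with peaks of both replicates, the Taar run had the largest ratio of replicate 2 to replicate 1. Over 0.190 Mb it held 8 peaks of replicate 1 and 45 of replicate 2, a ratio of 5.63, against 1.49 over the genome. Replicate 2 had 237 peaks per Mb there, above its 178 per Mb over the genome, and the 200 kb on either side held 395 per Mb in replicate 2 and 158 in replicate 1. The run Vmn2r65 to Vmn2r76 went the other way, with a ratio of 0.593. The replicates were sequenced on different instruments, so instrument and replicate cannot be told apart.

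Many shared sites lay near the start of another gene. Of the 82 sites in runs of 1 family, 51 (62.2%) lay within 2500 bp of a TSS of a gene outside the 4 families (their pseudogenes not counted as outside), and 37 (45.1%) within 500 bp. Over the genome, 50518 of the 89717 shared sites had centres farther than 2500 bp from any TSS, whereas the 51 were counted from site edges. By basic transcripts, 20.6% of all shared sites lay within 500 bp of a protein-coding TSS, against 35.4% of the 82. The 51 had median signals of 70 in replicate 1 and 45 in replicate 2. The other 31 had medians of 20 and 11. These runs contained 40 other protein-coding genes, of which 16 (40.0%) had a TSS peak in both replicates, whereas 0 of the 163 receptors in them had. The 7 runs with such genes inside had 7.58 shared sites per Mb, and the 12 without had 3.58.

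**Figure D3:**
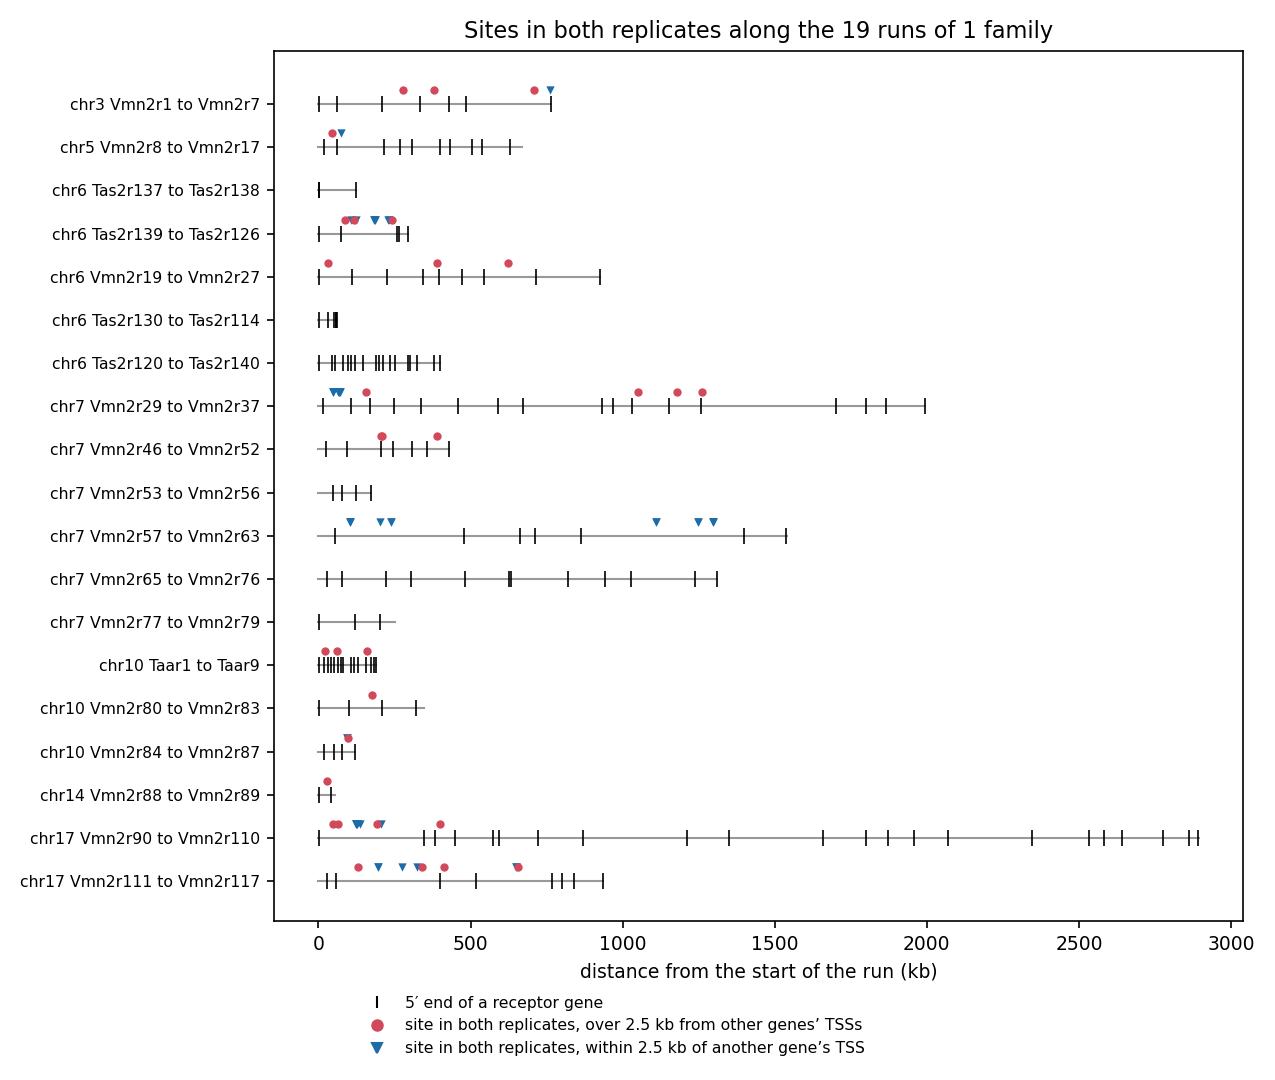
The 19 runs of 1 family drawn to scale from their start (x axis, kb), with bars for the 5′ ends of receptor genes, red circles for sites in both replicates over 2500 bp from any TSS of another gene (31) and blue triangles for sites nearer to one (51). Blue sites gather in a few spots, while 6 runs carry neither symbol.

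The strongest sites lay at other genes embedded among the receptors. In the Tas2r139 to Tas2r126 run, the promoter of Casp2, a caspase gene, had the highest signals in runs of 1 family, 141 in replicate 1 and 95 in replicate 2 at chr6:42264816-42265065. Gstk1, a glutathione transferase gene, had 106 and 49, and Fam131b had 4 sites, the strongest at 97 and 70. Zyx, which encodes the adhesion protein zyxin, had peaks of both replicates over its starts, of signals 121 in replicate 1 and 82 in replicate 2, that did not overlap and so made no shared site. In the Vmn2r90 to Vmn2r110 run, 8 of the 13 shared sites lay within 2500 bp of a Spaca6 TSS, reaching 129 in replicate 1 and 92 in replicate 2, and the widest hotspots over any of them were 4238 bp in replicate 1 and 3248 bp in replicate 2. Spaca6 is a sperm gene whose locus also hosts the microRNA Mir99b, and 2 of the 8 sites had Mir99b as the nearest annotated start, at 1387 and 667 bp. By its basic transcripts Spaca6 had no TSS peak in either replicate, and the starts beside these sites are those of transcripts outside the basic set.

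Zinc finger genes made up another group of hosts. In the runs Vmn2r57 to Vmn2r63 and Vmn2r111 to Vmn2r117, 6 genes named Zfp had 12 of the 51 sites, while Zfp977 had neither a site nor a TSS peak. Zfp788 reached 130 in replicate 1 and 62 in replicate 2, Zfp40 reached 107 and 59, and Zfp141 102 and 51. At Clcn4, a chloride transporter gene in the run Vmn2r29 to Vmn2r37, 8 sites lay close together, the strongest at 127 and 86. The same run, which holds 17 receptors over 1.99 Mb, had 4 shared sites away from other genes, with signals of at most 7 in replicate 1 and 5 in replicate 2. The formyl peptide receptor genes Fpr1, Fpr2, Fpr3, Fpr-rs4, Fpr-rs6 and Fpr-rs7, some of which also act in vomeronasal neurons, lay in the Vmn2r90 to Vmn2r110 run with no TSS peak in either replicate, although an intron of Fpr3 held a site of signals 101 and 51.

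**Figure D4:**
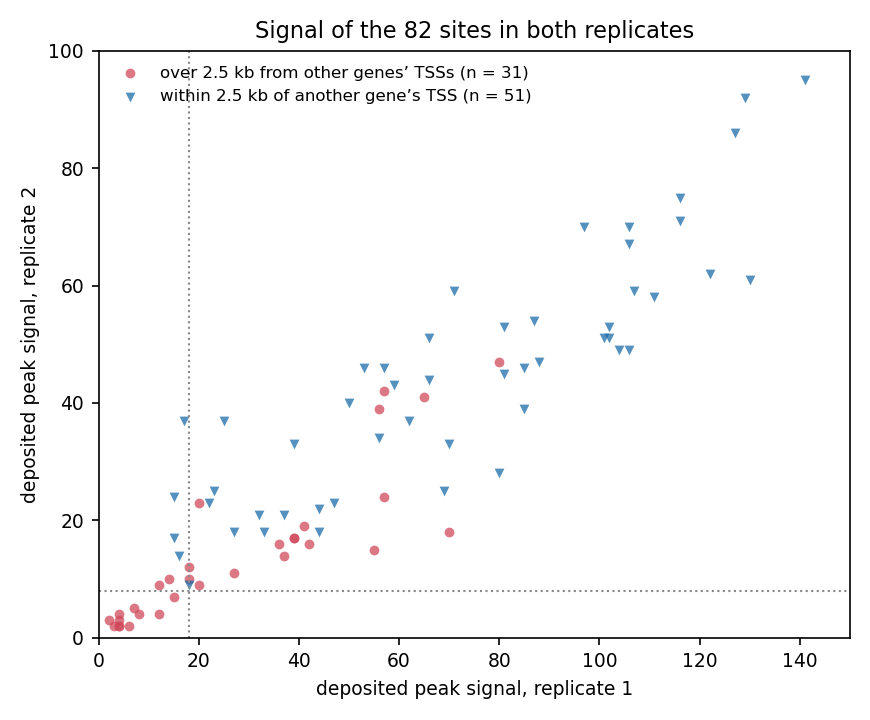
Deposited peak signal in replicate 1 (x axis) and replicate 2 (y axis) of the 82 sites in both replicates, by distance to the nearest TSS of a gene outside the families, with dotted lines at the medians of all peaks, 18 and 8. Sites over 2500 bp away reach 80 and 47, and sites nearer to a TSS reach 141 and 95.

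Among the 31 sites away from other genes, 18 had signals at or above the median of all peaks in both lists. Of 2 sites in the Taar run, that near Taar8a had signals of 39 in replicate 1 and 17 in replicate 2, and that near Taar2 had 18 and 12. Their centres lay 3881 bp from the Taar8a TSS and 4119 bp from the Taar2 TSS, and 70.0% and 73.3% of their central 150 bp were masked as repeats. In the Taar run no other protein-coding gene was annotated, and all 15 of its genes lay within 47.6 kb of a shared site.

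Among receptor genes in runs of 1 family, Vmn2r7 carried the strongest sites inside a gene body. Its body of 160 kb held 5 peaks of replicate 1 and 15 of replicate 2, and 2 sites were shared, with signals of 65 in replicate 1 and 41 in replicate 2 at the first, and 47 and 23 at the second. Both lie in introns of Vmn2r7 and of the overlapping noncoding transcript Gm26939. The centre of the first lay 20444 bp from the nearest Vmn2r7 TSS, and that of the second lay 2284 bp from it. A further 7 receptor bodies held 1 shared site each, among them Vmn2r87, Vmn2r9 and the single gene Tas1r2, a subunit of the sweet receptor. The only replicate 1 peak in Tas1r2, at signal 79, overlapped a peak of replicate 2, where its body held peaks of signals 14 and 38. The site at Vmn2r48 was the nearest to any receptor TSS, at 491 bp, and had some of the lowest signals, 2 in replicate 1 and 3 in replicate 2. In the Tas2r139 to Tas2r126 run, the site nearest to Tas2r144 had 57 and 42, with its centre 12103 bp from that TSS. The site nearest to Tmem139, a gene outside the families, had 70 and 18, with its centre 4509 bp from the Tmem139 TSS and 42133 bp from that of Tas2r144.

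The CTCF core without a mismatch was found in 2 of the 82 sites (2.44%), against 8.09% of all 89717 shared sites. Both were in the Tas2r139 to Tas2r126 run and away from other genes, making 2 of those 31 sites (6.45%), against 10.6% of all shared sites over 2500 bp from any TSS. With 1 mismatch allowed, a setting added after the sequences were seen, it was found in 17 of the 82 sites (20.7%), against 23.6% of all shared sites, and in 10 of the 31 sites (32.3%), against 28.1% of all those over 2500 bp from any TSS. Windows of 150 bp tiled over the runs held it in 1.56%. The Taar8a site and the Vmn2r7 site of larger signal, printed above, are among the 10. Other words were also searched on both strands in the central 150 bp of the 82 sites. CCAAT was in 22 (26.8%) against 18.6% of all shared sites, GGGCGG in 15 (18.3%) against 17.9%, and the ETS word CCGGAAG in 6 (7.32%) against 3.13%. Of the 31 sites away from other genes, 10 held CCAAT, 2 held GGGCGG and 0 held CCGGAAG.

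Receptor promoters from RefSeq differed in their words from all 16433 matched promoters. GGGCGG was in 2 of the 160 (1.25%), both of them Taar promoters, against 48.3% of all and 8.12% of promoters of other genes in the lowest 2 CpG deciles. The E-box CATCTG was in 46.1% of Vmn2r promoters, against 14.5% of all and 22.7% of the low-CpG ones. TGANTCA, the AP-1 word, was in 31.3% of Vmn2r promoters, against 7.11% and 13.1%. ATGCAAAT, the POU word, was in 22.6% of Tas2r promoters, against 1.66% and 2.41%. Receptor promoters had a median GC content of 38%, against 57.0% for all, and genes of a family descend from common copies, so their promoters are not independent.

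Distances to the nearest shared site were long in the larger families. The median was 109 kb over receptors and 0.030 kb over all genes, and 51.4% of receptors were over 100 kb away, against 7.75% of all genes. It was 114 kb for Vmn2r, 248 kb for Tas2r, 11.8 kb for Taar and 6.09 kb for Tas1r genes. The 24 Tas2r genes over 100 kb away all lay in the runs Tas2r130 to Tas2r114 and Tas2r120 to Tas2r140 on chromosome 6. Other chemosensory families had similar or longer distances. Olfr genes had a median of 108 kb, with 51.7% over 100 kb away, and Vmn1r genes had 150 kb and 64.1%. The farthest of the 175 receptors were Vmn2r100, Vmn2r101 and Vmn2r102, at 1402127, 1367929 and 1284828 bp. The single genes differed, as Tas2r134 on chromosome 2 lay 2165 bp from a shared site and Vmn2r121 on chromosome X 584347 bp.

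**Figure D5:**
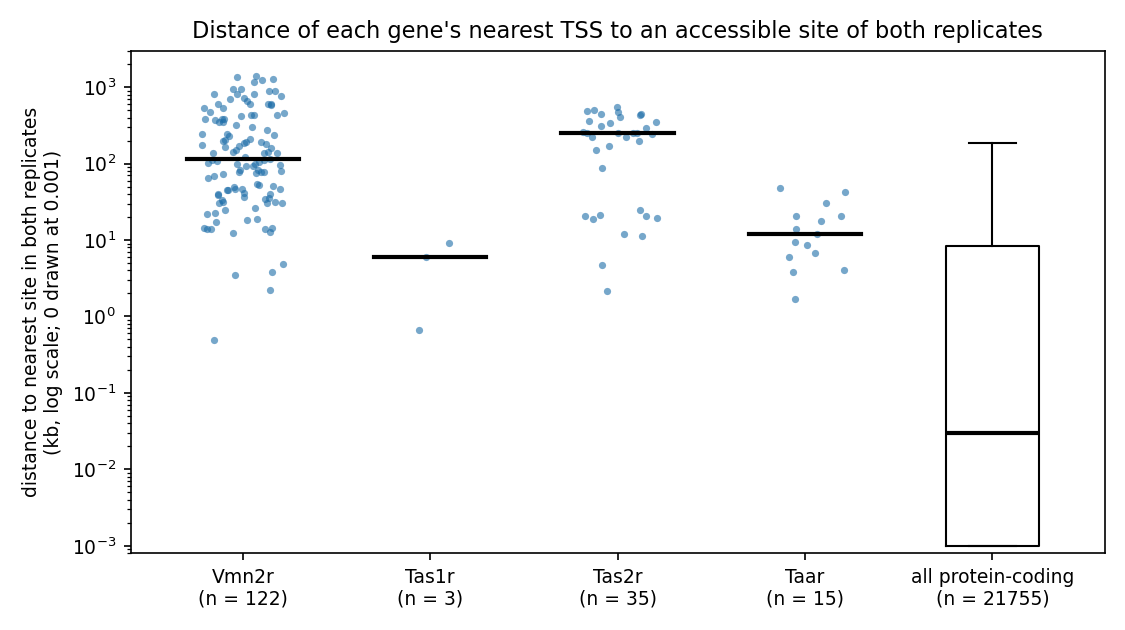
Distance from the nearest TSS of each gene to a site in both replicates (y axis, kb, log scale) for every receptor by family, with a bar at the median, and for all protein-coding genes (distances of 0 drawn at the lower edge) as a box from the first to the third quartile with whiskers at the 5th and 95th percentiles. Medians are 114, 6.09, 248 and 11.8 kb for Vmn2r, Tas1r, Tas2r and Taar genes and 0.030 kb for all genes.

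Some receptor bodies were dense in peaks of 1 replicate alone. Vmn2r100, on chromosome 17, held 32 peaks of replicate 2 in 30.5 kb and 0 of replicate 1, with a median signal of 3 and a highest signal of 6. Vmn2r19 held 14 of replicate 2 and 3 of replicate 1, without overlap. Taar2 held 6 of replicate 2 and 0 of replicate 1, and hotspots of replicate 2 covered 2022 bp of its 3.01 kb. Over all 175 bodies replicate 1 had 82 peaks in 32 genes, replicate 2 had 174 peaks in 47 genes, and 9 sites in 8 genes were shared.

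Sequence in the runs is repeated elsewhere in the genome more than usual, which limits where short reads can be placed. Of 32-base words in the 19 runs 54.7% occurred once in the genome, against 83.8% in 1 kb windows taken every 100 kb. The share ran from 7.86% in Vmn2r29 to Vmn2r37 to 85.9% in Tas2r139 to Tas2r126. In 1 kb bins with under 25% of unique words there were 0.496 shared sites per Mb, and in bins of 75 to 100% there were 9.11, which is below the genome's 35.1. None of the 335 peaks of replicate 1 or 650 of replicate 2 in these runs lacked a unique word, while 22.7% of 150 bp windows tiled over them did. Of the 91 receptors whose TSS windows were at least 75% unique, 0 had a TSS peak in both replicates and 87 (95.6%) had none in either. Vmn2r65 to Vmn2r76, without a shared site, was 71.9% unique. How reads with several possible positions were handled is not given in the sources used here.

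Hotspots pooled over the 19 runs were narrower and weaker than those of the genome, but the families differed. Their median width was 130 bp in replicate 1 and 123 bp in replicate 2 over the 19 runs, against 214 and 201 bp over the genome. The median −log10 q-value was 2.78 and 2.54 in the runs, against 4.21 and 3.36, and 25% and 18.7% stood at the cap, against 36.6% and 29.6%. In Vmn2r runs the median widths were 125.5 bp in replicate 1 and 115 bp in replicate 2, with 21.9% and 13.7% at the cap. In Tas2r runs the widths were 219 and 197 bp, with 50% and 43.5% at the cap. The Taar run had 119.5 bp in replicate 1 and 257 bp in replicate 2, where 42.9% stood at the cap. Among Tas2r runs, Tas2r120 to Tas2r140 had 77.8% of its 9 replicate 1 hotspots at the cap, with a median peak signal of 7.

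Other genes of sensory cells were divided. Of 29 genes listed for signalling, transport and control in vomeronasal and olfactory neurons and taste cells, 17 had a TSS peak in both replicates, 1 (Gng13) in replicate 2 alone and 11 in neither, where 65.5% of all genes had both. The G protein genes Gnai2 (signals 135 in replicate 1 and 79 in replicate 2) and Gnao1 (117 and 82), and the genes for the regulators Lhx2 (107 and 71), Ldb1 (131 and 76) and Ebf1 (133 and 70), were among the 17. Those with neither were Trpc2, Omp, Cnga2, Cnga4, Rtp1, Rtp2, Stoml3, Gnat3, Plcb2, Calhm1 and Calhm3. They include Trpc2, the vomeronasal channel, Omp, the marker of mature olfactory neurons, and Gnat3, the taste G protein. Of 6 genes listed as markers of vomeronasal and olfactory neurons, 4 had neither. The other 2, Adcy3 (66 and 55) and Gng8 (95 and 56), had a TSS peak in both replicates. Of 5 genes listed as markers of taste cells, 3 had neither and 2 had both. Trpm5 (61 and 42) and Pou2f3 (75 and 28), both known from taste and other chemosensory cells, had peaks in both. Of the midbrain markers, 7 of 8 had a TSS peak in both replicates and Lmx1b in replicate 2 alone, and all 4 progenitor markers (Sox2, Nes, Hes5 and Vim) had both.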

How the data were processed

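DNase-seq peaks and hotspots of 2 replicates on mm10 were used as deposited. Per the deposited file records, both kinds of list came from each replicate's own alignments, without pooling. Which aligner, caller and filters were used is not stated in the labels or headers. Read depth is unknown, so no interval for counting error is given. The signal of a peak, as the authors deposited it, is a whole number from 1 to 148 in replicate 1 and to 130 in replicate 2. The deposited −log10 q-value of a hotspot runs from 1.30 to a cap of 100.

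Gene models were GENCODE vM21 basic transcripts, and sequence and masking came from GRCm38.p6, whose chromosome lengths no peak exceeded. Rows with equal coordinates were counted once. Python 3.11.15 with numpy 2.4.6, pandas 2.3.3 and numba 0.67.0 did the counts, which were tested on simulated data. Distances to a shared site run from its edge, unless given from its centre. The set of all shared sites over 2500 bp from any TSS was taken by centres. Promoters came from RefSeq on GRCm38.p6.

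Genes, lists and words were chosen with earlier results of these data known. Named receptors were those with a TSS peak in both replicates, up to 3 of the highest signals per family and replicate, and the first 2 in alphabetical order without a peak. Named sites included the 12 with the highest lower percentile of signal, most of which lie in the chromosome 4 run and are summarised by its density. The strongest peak of each replicate without an overlapping peak of the other was also taken in each family by the rule. Alternatives changed the TSS window, transcripts, signal, overlap, gap and replicate. Of the 3 shared sites in the Taar run, the 1 with the highest signals is not reported here by itself, though it is in the counts. Each replicate pooled embryos, so variation between embryos is not measured.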

Additional observations from a re-analysis of the deposited data

How the results depend on the processing

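Of 32 alternative values, 18 stayed within 1.5 times the value reported. The count of 161 receptors without a TSS peak in either replicate was 152 to 173 under all alternatives that kept the 175 genes, and 87 among the 91 receptors with at least 75% unique words. The count of 1 receptor with a TSS peak in both replicates is too small to be stable. It was 0 with a window of 150 bp, 3 with 1000 bp, 0 with the stronger 50% of peaks, 2 with hotspots and 0 among the 91 receptors, and ran from 2 to 13 with either replicate alone. With gaps of at most 250 kb the runs held 50 shared sites, or 4.58 per Mb, over 10.9 Mb. That limit did not join Tas1r3 to Vmn2r-ps159, so the chromosome 4 run with its 34 sites dropped out. It also split other runs and left out sites in their gaps. Among these splits were Vmn2r57 from Vmn2r58, Vmn2r90 from Vmn2r124, Vmn2r112 from Vmn2r113 and Vmn2r45 from Vmn2r40. With either replicate alone the runs held 392 to 674 peak regions, or 28.2 to 48.5 per Mb. The runs of 1 family and the 75% limit were added after seeing the data. No paired analysis was possible because there was 1 group and no comparison between groups. Depth is unknown and limits every absence of a peak, as do repeated sequences.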

Other observations

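The strongest peaks of 1 replicate alone in the runs were also at other genes in most cases. In Vmn2r runs the strongest without overlap had signal 52 in replicate 1, 546 bp from an AW146154 start. In replicate 2 it had signal 73 and lay over a Spaca6 start, between shared sites of that gene. In Tas2r runs both were at Zyx, where the peaks of the replicates lay side by side. In the Taar run, replicate 1 had a peak of signal 24 over the start of the pseudogene Gm6884 and 3825 bp from Taar7f. Replicate 2 had a highest signal of 11 among peaks without overlap there.

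Of the 12 strongest shared sites, the mixed run on chromosome 4 held 7. They lie at 9430015G10Rik, at B3galt6 and Sdf4, at Noc2l, at Acap3 and Pusl1, at Agrn, at Ube2j2, and at Cptp and Ints11, and the centre of the last was 6179 bp from Tas1r3. Of its 20 other protein-coding genes 14 had a TSS peak in both replicates.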
